A study of Mus musculus with 6 samples.

Results

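The type I interferon response module was a list of 39 interferon-stimulated genes chosen by name, of which those whose counts over the 6 libraries came to at least 10 were described. By this rule 38 of the 39 listed genes were measured, out of 16954 genes with at least 10 counts and 55573 genes in the count tables. The gene left out was Ifi47, an immunity-related GTPase, with 0, 0 and 1 counts in the Rosa-Hes1 libraries and 1 count in each control library. The membership used no measured difference between the groups, although the list was drawn up with earlier results of these data known.

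The libraries were made from osteoclast cultures of male mice. Bone marrow-derived macrophages were kept in M-CSF (30 ng/ml), a growth factor that keeps the precursors alive, and RANKL (10 ng/ml), which drives them to become osteoclasts, and were collected at day 4. The 3 Rosa-Hes1 libraries came, by the study's account, from Ctsk Cre/WT;Rosa Hes1 mice of 10 weeks, in which Cre made under control of the cathepsin K gene removes a STOP cassette at the Rosa26 locus and lets Hes1 be expressed together with GFP. The 3 control libraries are labelled wild type, and the study describes them as littermates that hold the Rosa[STOP]Hes1 allele with its cassette in place and lack Cre. Both groups were given the same medium for the same time, and the labels call the libraries of a group biological replicates. Because cathepsin K is made mainly as cells become osteoclasts, the precursors in a Rosa-Hes1 culture need not hold the active allele. The Cre line had a C57BL/6 background and the Rosa allele came from ICR stock, so the animals were of mixed strain and the alleles that each library carried at the module's genes are not known. The cultures were sequenced whole, and fewer cells of a type cannot be told apart from less RNA per cell.

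Type I interferons signal through IFNAR1 and IFNAR2 to the kinases JAK1 and TYK2, which phosphorylate STAT proteins, STAT2 among them. With IRF9 these enter the complex ISGF3, which binds the interferon-stimulated response element (ISRE) in the promoters of target genes. The targets encode sensors of foreign RNA and DNA, enzymes and binding proteins that block viral replication, and the factors of the pathway itself. In osteoclast precursors RANKL induces interferon beta, which restrains osteoclast formation, and cells keep a low tonic interferon signal without infection. HES1 is a basic helix-loop-helix repressor downstream of Notch receptors that binds N-box and class C sites.

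The promoter sequences of the members show what the list has in common apart from its names. In the RefSeq table of promoter windows (GRCm38.p6, 250 bases before to 50 bases after each gene's start), 30 of the 39 listed genes had an entry. The letters GAAANNGAAA, searched on both strands with overlapping matches allowed, stood for the ISRE and were found in 18 of the 30 members (60%), against 3.99% of the 27025 genes in the table. The gamma-activated site, TTCNNNGAA, known from targets of interferon gamma, was found in 7 of the 30 (23.3%), against 9.55% of all genes. The sites known for HES1 were common among all genes. The N-box CACNAG was in 18 members (60%) and in 46.1% of all genes, and the class C site CACGNG was in 6 members (20%) and in 30.3% of all genes. A window with CACGAG counts for both. The stretches below are examples of the ISRE in members described further on. Other members, Oasl2, Ifi35 and Irf7 among them, had windows without the letters. The stretches run 5′ to 3′ on the strand of the gene, with the ISRE letters of either strand in capitals.
Isg15 (chr4:156200855-156200916, minus strand): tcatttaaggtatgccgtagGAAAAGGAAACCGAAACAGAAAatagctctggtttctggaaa
Ifit1 (chr19:34640765-34640833, plus strand): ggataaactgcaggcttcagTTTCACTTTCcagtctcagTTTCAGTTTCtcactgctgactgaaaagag
Ifit3 (chr19:34583353-34583436, plus strand): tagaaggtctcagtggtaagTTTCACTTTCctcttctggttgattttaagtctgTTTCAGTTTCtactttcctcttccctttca
Ifit3b (chr19:34607749-34607832, plus strand): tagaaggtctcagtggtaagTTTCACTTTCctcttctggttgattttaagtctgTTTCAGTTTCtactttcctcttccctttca
Oas1a (chr5:120907526-120907565, minus strand): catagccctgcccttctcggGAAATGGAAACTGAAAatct
Bst2 (chr8:71537567-71537622, minus strand): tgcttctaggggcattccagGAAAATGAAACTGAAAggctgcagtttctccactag
Gbp2 (chr3:142620584-142620633, plus strand): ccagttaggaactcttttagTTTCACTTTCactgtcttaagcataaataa
The Isg15 stretch held 3 overlapping matches within 98 to 37 bases before the start. Ifit1, Ifit3, Ifit3b, Oas1a and Bst2 held 2 matches each, and Gbp2 held 1. The 84 bases shown for Ifit3 and Ifit3b, neighbours on chromosome 19, were the same letter for letter.

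The libraries held 13038362 to 15956331 counts in genes. The targeted gene fitted its labels, with Hes1 at 4.95, 4.83 and 6.91 CPM (counts scaled to the library's effective total) in the Rosa-Hes1 libraries, against 0.517, 0.557 and 0.296 CPM in the control libraries (log2 fold change 3.57 ± 0.30 SE, edgeR adjusted p = 0.00477). The cultures carried osteoclast genes in both groups, and 9 of 10 osteoclast markers were called higher in Rosa-Hes1. Of 12 macrophage markers 1 was called higher and 1 lower. Of 10 markers of plasmacytoid dendritic cells, which make much interferon in the body, 5 had under 10 counts in all, among them Klk1 at 0 counts in every library and Siglech at 2 counts over the 6 libraries. The other 5 summed to 50.9, 46.4 and 56.6 CPM in Rosa-Hes1, against 57.5, 48.7 and 49.5 CPM in control, most of it from Tcf4, which other cells express too, and none was called.

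No member was called between Rosa-Hes1 and control cultures. The 38 measured members leaned lower in Rosa-Hes1, with 33 of the 38 below 0 on the log2 fold change scale and a median of -0.20, against 51.4% of all 16954 tested genes below 0 and a median of -0.01 over them. None of the 38 passed edgeR's quasi-likelihood test at an adjusted p of 0.05, while 8.25% of all tested genes were called in either direction and 2.41% were called lower. At an unadjusted p under 0.05 there were 5 members, Oasl2, Parp14, Irgm1, Ifi35 and Ddx58, all on the lower side, which is a share of 13.2% against 25.7% of all tested genes. DESeq2 called 2 members lower, Oasl2 and Parp14, where it called 5.17% of all genes lower. The 3 Rosa-Hes1 libraries all lay below the 3 control libraries in 3 members, Oasl2, Parp14 and Ifi35, or 7.89%, against 14.5% of all tested genes, and in none did they all lie above. The size of the lean depended on single libraries. Without Rosa-Hes1 replicate 1, 22 of the 38 members were below 0 and their median was -0.03. Without Rosa-Hes1 replicate 3, 37 were below 0 and the median was -0.33. Replicate 1 was the lowest library in 34 members, so leaving it out could only raise their level in Rosa-Hes1.

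What the module did show was a difference between libraries of the same group. Rosa-Hes1 replicate 1 had the lowest CPM of the 6 libraries in 34 of the 38 members (89.5%), while it was the lowest in 16.8% of all tested genes. The remaining members were lowest in Rosa-Hes1 replicate 2 (Bst2) or in control replicate 3 (Rtp4, Ifi205 and Gbp7). The members' median distance from their own mean over the 6 libraries, in log2 CPM, was -0.47 in Rosa-Hes1 replicate 1, -0.01 in replicate 2 and 0.15 in replicate 3, against 0.22, 0.19 and -0.09 in control replicates 1, 2 and 3. Rosa-Hes1 replicate 1 thus had the lowest median of the 6 libraries, and within its group the medians rose from replicate 1 to replicate 3.

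**Figure D1:**
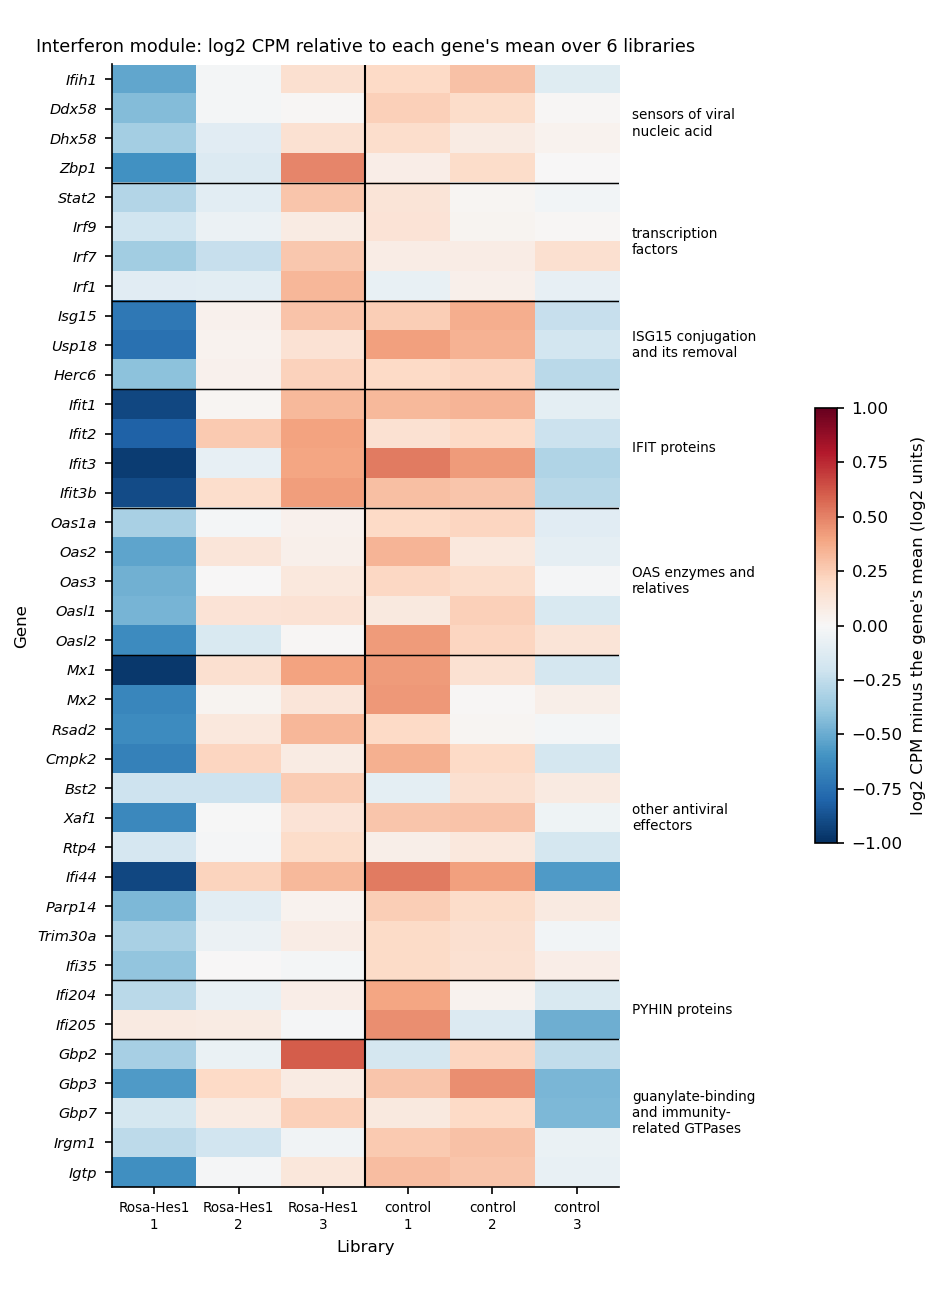
Heat map of the 38 measured members (rows, grouped by role) in the 3 Rosa-Hes1 and the 3 control libraries (columns); the colour is log2 CPM minus the gene's mean over the 6 libraries, from blue (below) to red (above). The column of Rosa-Hes1 replicate 1 is below 0 in 37 of the 38 rows, and that of control replicate 3 in 28.

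**Figure D2:**
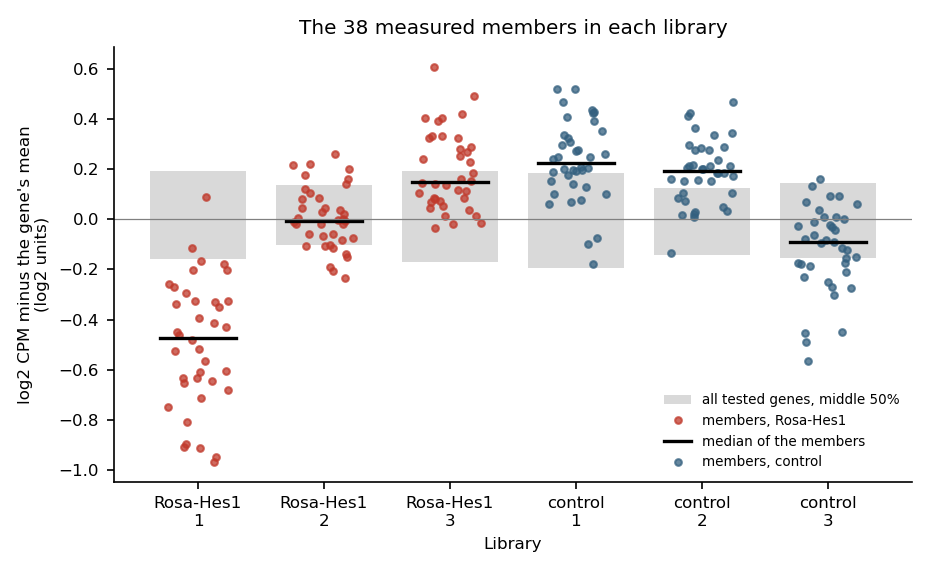
Each point is 1 of the 38 members in 1 library, as log2 CPM minus the gene's mean over the 6 libraries; the black bar is the median of the members and the grey box spans the middle 50% of all 16954 tested genes. The members' median was -0.47 in Rosa-Hes1 replicate 1 and between -0.09 and 0.22 in the other 5 libraries, while the median of all tested genes was between 0.00 and 0.01 in every library.

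Within the Rosa-Hes1 group, replicate 1 lay below both other replicates in 36 of the 38 members (94.7%), against 27.9% of all tested genes, and the exceptions were Bst2 and Ifi205. Replicate 3 was the highest of the group in 33 of the 38 members, against 5310 of the 16954 tested genes. Ratios of replicate 1 to the other Rosa-Hes1 replicates therefore also take in a high replicate 3. The median member stood in replicate 1 at 0.671 times the mean of replicates 2 and 3, and the ratio ran from 0.420 (Mx1) to 1.04 (Ifi205), while the median over all tested genes was 1.01. A smaller step of the same kind was present in the control group. Control replicate 3 lay below both other control replicates in 35 of the 38 members (92.1%), against 32.6% of all tested genes, with a median ratio of 0.800, and the exceptions were Irf7, Bst2 and Mx2. The SD of log2 CPM over 3 libraries had a median of 0.34 in Rosa-Hes1 and 0.21 in control for the members. Over all tested genes the median was 0.18 in Rosa-Hes1 and 0.16 in control. Over the 10174 tested genes averaging 5 CPM or more, a level all 38 members exceeded, it was 0.11 in Rosa-Hes1 and 0.10 in control. The members' spread was thus above that of genes of such levels in both groups. The SD was larger in Rosa-Hes1 than in control in 33 of the 38 members (86.8%), and in 53.1% of all tested genes. These shares describe 6 libraries and carry no test.

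Measures of the libraries that could move with this pattern were set beside it, and their part in it was not tested. Rosa-Hes1 replicate 1 held 15605454 counts in genes, more than any library but control replicate 2. The share of reads outside genes was 17.4% in Rosa-Hes1 replicate 1, 17.5% and 17.9% in the other Rosa-Hes1 libraries and 17.8% to 18.1% in control. The summed level of the 10 osteoclast markers was 19380, 17050 and 20015 CPM in Rosa-Hes1 replicates 1, 2 and 3, against 10755, 13810 and 12718 CPM in control, so replicate 1 lay between the other Rosa-Hes1 libraries. The summed level of the 10 neutrophil markers was 248, 350.5 and 285 CPM in Rosa-Hes1, against 525, 359 and 262 CPM in control. Rosa-Hes1 replicate 1 was the lowest of the 6 by a small margin, and none of these 10 markers was called. The summed level of the 12 macrophage markers was 6088, 5522 and 6814 CPM in Rosa-Hes1, against 5496, 5718 and 6631 CPM in control, and here replicate 1 was not the lowest. For the 9 measured stroma and osteoblast markers the sum was 321, 432 and 135 CPM in Rosa-Hes1, against 549, 209.6 and 205 CPM in control. None of them was called. For the 9 measured conventional dendritic cell markers it was 39.2, 37.5 and 47.0 CPM in Rosa-Hes1, against 34.6, 32.7 and 34.1 CPM in control, with 1 called higher. These sums weigh abundant genes most. Counted by gene, 10 of the 12 macrophage markers (median log2 fold change -0.17) and 9 of the 10 neutrophil markers (median -0.37) lay below 0. So did 6 of the 9 stroma and osteoblast, 1 of the 9 dendritic cell and 0 of the 10 osteoclast markers, against 51.4% of all tested genes.

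None of the 4 sensors of viral nucleic acid was called, and their log2 fold changes ran from -0.28 to -0.10. Ddx58 encodes RIG-I, the sensor of RNA with a free triphosphate end. It had 215, 286 and 293 CPM in Rosa-Hes1 libraries, against 342, 329 and 292 CPM in control libraries (log2 fold change -0.28 ± 0.12 SE, edgeR adjusted p = 0.194). The Rosa-Hes1 and control values met at about the level of Rosa-Hes1 replicate 3 and control replicate 3, so the groups overlapped. Ifih1, encoding the long double-stranded RNA sensor MDA5, and Dhx58, encoding their partner LGP2, had log2 fold changes of -0.24 ± 0.18 and -0.19 ± 0.12 (SE). Zbp1, a sensor of Z-form nucleic acid that can start necroptosis, had 54.7, 75.8 and 117 CPM in Rosa-Hes1, against 87.4, 94.7 and 83.6 CPM in control. Its highest and its lowest library were both Rosa-Hes1 libraries, and it is given here as an example chosen after its values were seen.

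The transcription factors had the narrowest spread of all roles in control libraries, with a median SD of log2 CPM of 0.07, against 0.27 in Rosa-Hes1 libraries. Irf7 encodes the factor that amplifies interferon production and was the member with the most counts. It had 520.0, 563 and 798 CPM in Rosa-Hes1, against 698, 696 and 741 CPM in control (log2 fold change -0.18 ± 0.15 SE, edgeR adjusted p = 0.505). Rosa-Hes1 replicates 1 and 2 lay below all control libraries and replicate 3 above them. Without Rosa-Hes1 replicate 3, Irf7 was the only member that edgeR called, at a log2 fold change of -0.40 and an adjusted p of 0.0413, where its adjusted p over all alternatives ran from 0.0413 to 0.861. Stat2 and Irf9, parts of ISGF3, had log2 fold changes of -0.06 ± 0.14 and -0.11 ± 0.08 (SE). Irf1, which binds overlapping promoter elements and answers interferon gamma strongly, had 0.09 ± 0.12 (SE). In all 4 factors Rosa-Hes1 replicate 1 was the lowest library, at 0.766 to 0.862 times the mean of the other Rosa-Hes1 replicates. For Irf1 the margin was small, with 46.2, 46.5 and 63.0 CPM in Rosa-Hes1, against 47.5, 51.7 and 47.2 CPM in control. Only Rosa-Hes1 replicate 3 stood out, and these values were chosen for showing after they were seen.

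Isg15, a small ubiquitin-like protein joined to other proteins after interferon, and Usp18, the protease that removes it and also blocks the receptor, had the same 3 lowest libraries. Isg15, whose promoter held 3 overlapping ISRE matches, had 61.1, 103 and 122 CPM in Rosa-Hes1, against 119, 129 and 85.3 CPM in control. Usp18 had 43.1, 74.2 and 80.1 CPM in Rosa-Hes1, against 96.1, 92.0 and 63.6 CPM in control. In both, Rosa-Hes1 replicate 1 was lowest, control replicate 3 came next and Rosa-Hes1 replicate 2 after it. Both were chosen after their values were seen, and neither was called, with log2 fold changes of -0.22 ± 0.28 and -0.35 ± 0.26 (SE). Herc6, the mouse ligase of ISG15, had -0.09 ± 0.19 (SE).

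The IFIT genes, whose proteins bind foreign RNA and block its translation, had as a group the widest gap between Rosa-Hes1 replicate 1 and the other Rosa-Hes1 libraries, with a median ratio of 0.459. Ifit2 had 26.3, 55.4 and 61.2 CPM in Rosa-Hes1, against 51.3, 53.1 and 39.9 CPM in control. Ifit3 had 21.2, 38.7 and 53.8 CPM in Rosa-Hes1, against 58.7, 55.0 and 33.2 CPM in control, and Ifit3b had 5.67, 12.1 and 14.3 CPM in Rosa-Hes1, against 13.1, 12.9 and 8.80 CPM in control. In each of them Rosa-Hes1 replicate 1 was the lowest of all libraries and control replicate 3 was the lowest control. The other Rosa-Hes1 libraries lay within the control range for Ifit3 and above it for Ifit2. Ifit1, with the same library lowest, stood there at 0.471 times the mean of the other Rosa-Hes1 replicates, where Ifit2, Ifit3 and Ifit3b stood at 0.453, 0.466 and 0.437 times that mean. The log2 fold changes of the 4 genes ran from -0.37 to -0.02 with all libraries. Without Rosa-Hes1 replicate 1, Ifit2 and Ifit3b had positive values of 0.28 and 0.18. Ifit3 and Ifit3b, whose promoter stretches above were identical, also share 41.1% and 35.7% of their 75-base transcript windows with other genes. Reads from such windows can be dropped by the counting, so their separate levels are uncertain. The study sequenced read pairs, and a pair with only 1 mate in a shared window may still be counted.

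The genes of OAS enzymes and their relatives lie in clusters on chromosome 5 and were all below 0. OAS enzymes make 2′-5′ oligoadenylates that switch on RNase L. Oasl2 had the lowest fold change of the module, with 174, 242 and 272 CPM in Rosa-Hes1, against 361, 313 and 295 CPM in control (log2 fold change -0.49 ± 0.16 SE, edgeR adjusted p = 0.101, DESeq2 adjusted p = 0.0132). All Rosa-Hes1 values lay below all control values. Over the alternatives run, its adjusted p ranged from 0.0132 to 0.262 and its fold change without single libraries from -0.64 to -0.33, with -0.33 given without Rosa-Hes1 replicate 1. Oas3 had 182, 255 and 273 CPM in Rosa-Hes1, against 294, 287 and 252 CPM in control (-0.23 ± 0.15 SE). Oas2 had 154, 241 and 231 CPM in Rosa-Hes1, against 280.4, 239 and 209 CPM in control (-0.22 ± 0.18 SE). In both, Rosa-Hes1 replicate 1 was the lowest library and the other Rosa-Hes1 libraries fell within the control range. Oasl1, which in mice holds back translation of Irf7, had 131, 199 and 199 CPM in Rosa-Hes1, against 193, 212 and 162 CPM in control (-0.10 ± 0.17 SE). Oas1a had 113, 141 and 147 CPM in Rosa-Hes1, against 164, 165 and 132 CPM in control (-0.20 ± 0.12 SE), and 47.6% of its 75-base windows also occur in other genes, so its level is uncertain.

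Among the other antiviral effectors the spread between libraries was wide for some genes and narrow for others. Mx1, a dynamin-like GTPase that blocks influenza virus and is defective in many laboratory strains, had 16.6, 36.5 and 43.3 CPM in Rosa-Hes1, against 44.0, 36.3 and 28.8 CPM in control. Its SD of log2 CPM in Rosa-Hes1, 0.73, was the largest of the module. Ifi44, an interferon-induced cytoplasmic protein, had 26.1, 57.4 and 61.6 CPM in Rosa-Hes1, against 70.6, 65.5 and 33.2 CPM in control. Here Rosa-Hes1 replicate 1 and control replicate 3 were close to each other and both far from the remaining libraries, so the spread was wide in both groups (SD 0.68 in Rosa-Hes1 and 0.60 in control). Neither gene was called, with log2 fold changes of -0.18 ± 0.36 and -0.23 ± 0.43 (SE).

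Bst2 encodes tetherin, which holds budding virus at the cell surface, and had 269.8, 269.4 and 371 CPM in Rosa-Hes1, against 290.5, 347 and 331 CPM in control (log2 fold change -0.09 ± 0.13 SE). Its promoter stretch held 2 ISRE matches, and Rosa-Hes1 replicates 1 and 2 were nearly equal. Rtp4, a regulator of interferon responses first described as a receptor transporter, had 179, 200.1 and 229 CPM in Rosa-Hes1, against 209.9, 216 and 178 CPM in control (0.01 ± 0.11 SE). In both genes the groups overlapped, and Rosa-Hes1 replicate 1 stood at 0.854 and 0.839 times the mean of the other Rosa-Hes1 replicates.

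Parp14, a mono-ADP-ribosyltransferase, had 271, 345 and 381 CPM in Rosa-Hes1, against 441, 422 and 395 CPM in control (log2 fold change -0.34 ± 0.12 SE, edgeR adjusted p = 0.114, DESeq2 adjusted p = 0.0415). The groups did not overlap, and its adjusted p over the alternatives ranged from 0.0415 to 0.280. Trim30a, a mouse ubiquitin ligase that restrains Toll-like receptor signals, had 209, 252 and 276 CPM in Rosa-Hes1, against 299, 293 and 257 CPM in control (-0.20 ± 0.11 SE). Ifi35 did not overlap between the groups either, with 43.5, 57.2 and 56.5 CPM in Rosa-Hes1, against 65.3, 63.5 and 59.97 CPM in control (-0.26 ± 0.11 SE, edgeR adjusted p = 0.168). The remaining effectors, Mx2, Rsad2 (viperin, which makes a chain-terminating nucleotide), its neighbour Cmpk2 and Xaf1, had log2 fold changes between -0.32 and -0.08, and each had its lowest value in Rosa-Hes1 replicate 1.

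**Figure D3:**
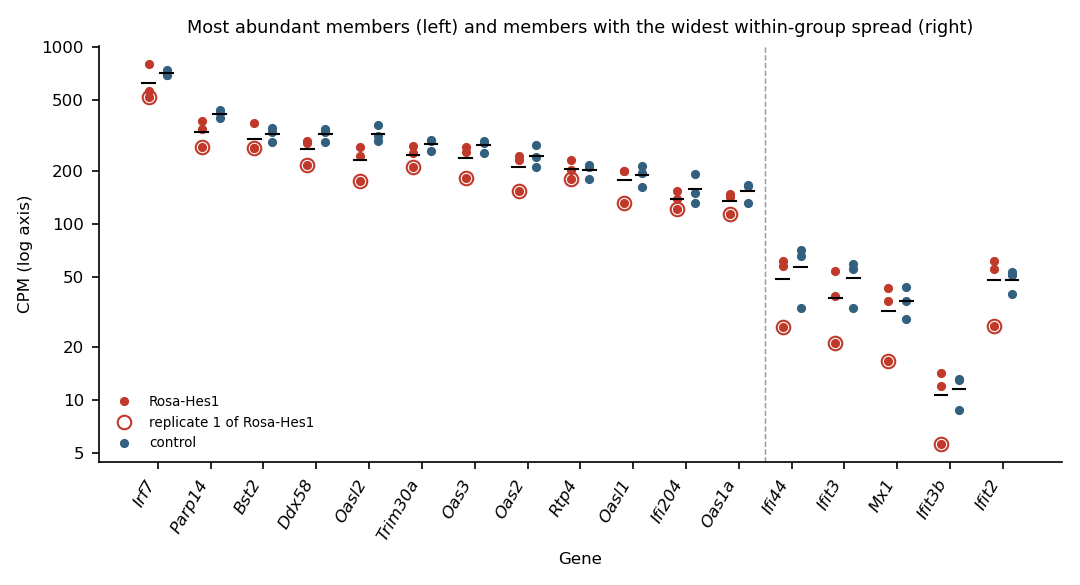
CPM on a log axis of the 12 members with the highest mean level (left of the dashed line) and the 5 with the largest spread within groups (right); each point is a library, Rosa-Hes1 left of control, short bars are group means and a ring marks Rosa-Hes1 replicate 1. The ringed point is the lowest Rosa-Hes1 value in 16 of the 17 genes, all but Bst2, and for Mx1 it lies at 16.6 CPM against 28.8 to 44.0 CPM in control.

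Of the 2 measured PYHIN proteins, which bind DNA, Ifi204 was lowest in Rosa-Hes1 replicate 1, at 0.832 times the mean of the other Rosa-Hes1 replicates, and Ifi205 was not. Ifi204 had 121, 138 and 153 CPM in Rosa-Hes1, against 191, 149 and 131 CPM in control (log2 fold change -0.19 ± 0.14 SE). Ifi205 had 22.0, 21.8 and 20.4 CPM in Rosa-Hes1, against 28.6, 18.8 and 14.6 CPM in control, so the 3 Rosa-Hes1 libraries were nearly equal and fell within the control range. The spread of log2 CPM of Ifi205 was 0.06 in Rosa-Hes1 and 0.48 in control, the reverse of most members. These genes lie in a cluster of near copies on chromosome 1, and 13.2% and 16.6% of their 75-base windows occur in other genes, so their levels are uncertain.

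The guanylate-binding proteins and immunity-related GTPases attack the vacuoles of intracellular pathogens and are driven by interferon gamma as well as by type I interferon. Of the 5 measured, Irgm1, Igtp and Gbp3 were below 0 and Gbp7 and Gbp2 above. Irgm1, a regulator of the other GTPases, had 32.9, 34.6 and 38.5 CPM in Rosa-Hes1, against 47.2, 48.2 and 37.7 CPM in control (log2 fold change -0.33 ± 0.11 SE, edgeR adjusted p = 0.102, and 0.0507 to 0.296 over the alternatives). Only Rosa-Hes1 replicate 3 overlapped control replicate 3. Irgm1 stood in Rosa-Hes1 replicate 1 at 0.903 times the mean of the other Rosa-Hes1 replicates and kept a log2 fold change of -0.28 without that library. Gbp2, with the highest fold change of the module, had 19.5, 23.4 and 37.4 CPM in Rosa-Hes1, against 21.6, 28.4 and 20.6 CPM in control (0.18 ± 0.25 SE, edgeR adjusted p = 0.719). Only its value in Rosa-Hes1 replicate 3 lay above the control range, and without that library its fold change turned to -0.14. The library values of Irgm1, Gbp2, Ifi205 and Ifi35 were chosen for showing after they were seen.

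**Figure D4:**
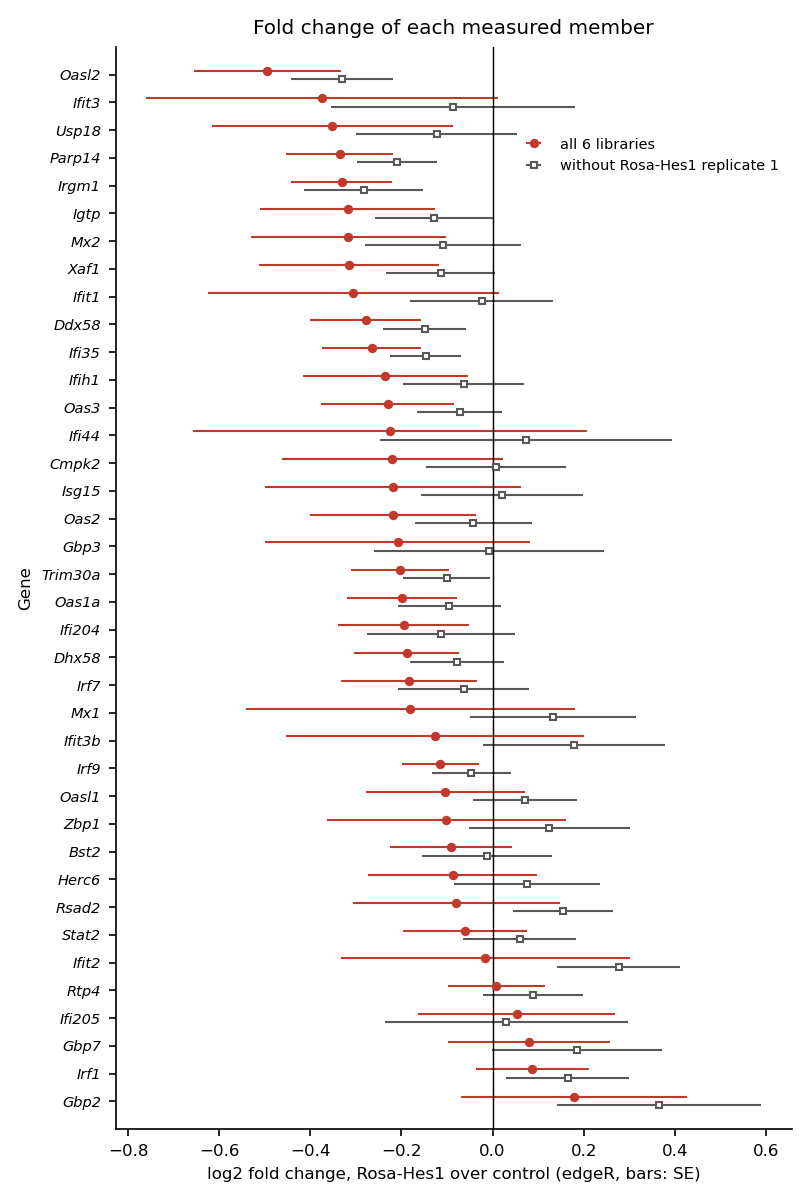
log2 fold change of Rosa-Hes1 over control for each of the 38 measured members, as estimated by edgeR with all 6 libraries (filled circles) and without Rosa-Hes1 replicate 1 (open squares); bars are standard errors. With all libraries 33 of 38 lay below 0, and without that library 22 of 38.

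**Figure D5:**
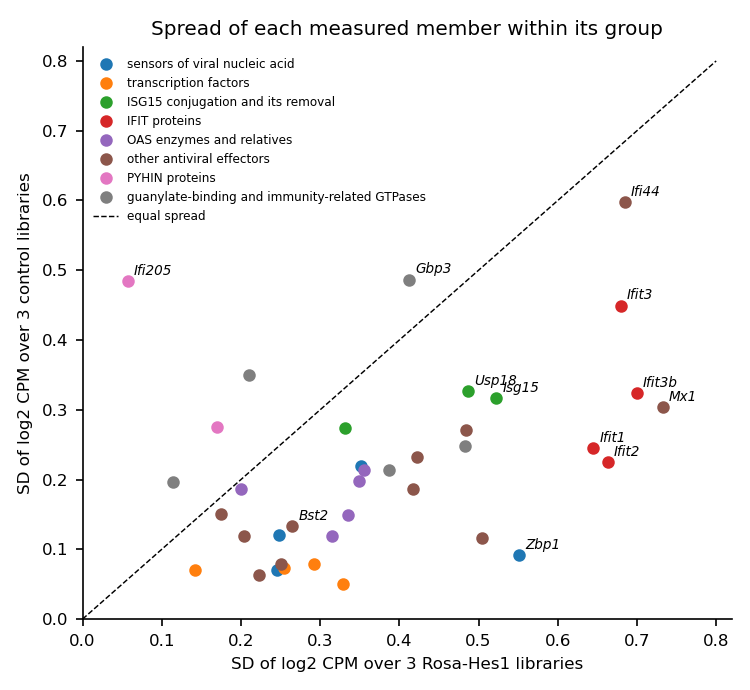
SD of log2 CPM over the 3 Rosa-Hes1 libraries (horizontal) and over the 3 control libraries (vertical) for each measured member, coloured by role, with a dashed line of equal spread. The points lie below the line in 33 of 38 members; Ifi44 was wide in both groups, and Ifi205 was wide in control only.

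Members with and without an ISRE in the promoter window had similar medians. The 18 measured members with the letters had a median log2 fold change of -0.21 and stood in Rosa-Hes1 replicate 1 at a median of 0.677 times the mean of the other Rosa-Hes1 replicates. The 11 measured members whose window lacked them, among them Ifit2 and Ifi44, had a median of -0.18 and a ratio of 0.677. Ifi47 had a window but was not measured. On a scale per length of exon, Bst2 had the highest level of the module at 347 CPM per kilobase, followed by Irf7 at 177 and Isg15 at 137, and Mx2 had the lowest at 2.79 CPM per kilobase, all as means over the 6 libraries.

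Of the 53 measured pathway genes around the module 6 were called, a share of 11.3% against 8.25% of all tested genes. The ligands were at or near the limit of detection. Of 21 interferon genes, 18 had 0 counts in every library, where 3 counts, the most that 0 allows, equal 0.186 to 0.222 CPM in a library. Ifnb1, encoding interferon beta, had 1, 6 and 3 counts in Rosa-Hes1, against 2, 3 and 0 counts in control, and no difference was detectable at this depth. Of the receptors, Ifnar1 had 209, 189 and 234 CPM in Rosa-Hes1, against 204, 216 and 253 CPM in control, and Ifnar2, the other chain, had 53.5, 54.0 and 56.9 CPM in Rosa-Hes1, against 60.2, 60.6 and 64.8 CPM in control. Neither was called (edgeR adjusted p = 0.655 and 0.146), and they are given for their role. Ifngr1, the ligand-binding chain of the interferon gamma receptor, was the receptor that fell, with 128, 140.1 and 128 CPM in Rosa-Hes1, against 170.2, 189.8 and 181 CPM in control (log2 fold change -0.45 ± 0.07 SE, edgeR adjusted p = 0.0103). The adjusted p was 0.0549 without Rosa-Hes1 replicate 1.

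None of the 5 receptor kinases and STATs was called. Among 6 further interferon regulatory factors, of which 5 were measured, Irf5, a factor downstream of Toll-like receptors, fell to 151, 159 and 165 CPM in Rosa-Hes1, against 202, 190 and 217 CPM in control (log2 fold change -0.36 ± 0.07 SE, edgeR adjusted p = 0.0226). Of 22 genes of nucleic acid sensing and interferon induction, 21 were measured, 2 fell and 1 rose. Tlr7, an endosomal receptor for single-stranded RNA, had 106, 112 and 118 CPM in Rosa-Hes1, against 178, 153 and 181 CPM in control (-0.61 ± 0.08 SE, edgeR adjusted p = 0.0071). Cgas, the sensor of cytosolic DNA, had 31.4, 43.1 and 32.2 CPM in Rosa-Hes1, against 54.5, 49.2 and 47.0 CPM in control (-0.50 ± 0.13 SE, edgeR adjusted p = 0.0489). Ticam1, encoding the adaptor TRIF of Toll-like receptors, rose to 52.4, 43.1 and 46.3 CPM in Rosa-Hes1, against 25.4, 31.8 and 31.6 CPM in control (0.67 ± 0.11 SE, edgeR adjusted p = 0.0127). In none of these did the groups overlap. The calls of Irf5 and Cgas were also lost without Rosa-Hes1 replicate 3, control replicate 1 or control replicate 3, and that of Cgas without control replicate 2 as well (adjusted p up to 0.109 for Irf5 and 0.18 for Cgas). Cgas was called under 6 of the 14 alternatives, and its call was also lost with upper-quartile scaling, the filterByExpr filter and the replicate number as a block in the fit (the replicate block; adjusted p = 0.053, 0.0525 and 0.057).

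Of 15 negative regulators 1 was called, Tnfaip3, the deubiquitinase A20, which rose to 115, 104 and 123 CPM in Rosa-Hes1, against 77.0, 89.6 and 71.0 CPM in control (log2 fold change 0.53 ± 0.10 SE, edgeR adjusted p = 0.0193, and 0.0636 to 0.0829 without Rosa-Hes1 replicate 1 or 3 or control replicate 1 or 3). Over all 53 measured pathway genes, 2 were called higher and 4 lower, a share of 11.3% against 8.25% of all tested genes. Without Rosa-Hes1 replicate 1, Tlr7 was the only one of the 6 that edgeR still called, with an adjusted p of 0.0462, while over all genes 244 were called higher and 21 lower, against 991 and 408 with all libraries. Rosa-Hes1 replicate 1 was the lowest library in 20 of the 53 (37.7%), against 34 of the 38 members.

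A wider list of 110 other interferon-stimulated genes, 106 of them measured, leaned lower like the module. It shared the low level in Rosa-Hes1 replicate 1 in a weaker form. The list's median log2 fold change was -0.20, with 88 of the 106 genes below 0. In it 1 gene was called higher and 3 lower, a share of 3.77% against 8.25% of all tested genes. Rosa-Hes1 replicate 1 was the lowest library in 70 of the 106 (66.0%), against 16.8% of all tested genes. Ifi27, a small mitochondrial protein, rose to 145, 117 and 117 CPM in Rosa-Hes1, against 82.7, 92.2 and 87.3 CPM in control (0.53 ± 0.10 SE, edgeR adjusted p = 0.0164). Slfn9 fell to 51.8, 71.8 and 50.8 CPM in Rosa-Hes1, against 99.1, 95.6 and 89.9 CPM in control (-0.71 ± 0.13 SE, edgeR adjusted p = 0.0181). Its relative Slfn8 (-0.60 ± 0.15 SE, adjusted p = 0.0423) and Apobec3, a cytidine deaminase that restricts retroviruses (-0.33 ± 0.07 SE, adjusted p = 0.0315), were the others that fell. In these 4 genes the groups did not overlap, and Ifi27 alone of them was still called by edgeR without Rosa-Hes1 replicate 1 (adjusted p = 0.0462). Its call was lost without control replicate 1 or 3 (adjusted p = 0.0699 and 0.0586), those of Slfn9 and Apobec3 on leaving out any library but Rosa-Hes1 replicate 2, and that of Slfn8 on leaving out any of the 6, at adjusted p up to 0.145. The replicate block also ended the calls of Apobec3 and Slfn8 (adjusted p = 0.0526 and 0.0574).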

How the data were processed

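Osteoclast cultures from 3 Rosa-Hes1 and 3 control mice were sequenced in 1 pool of stranded poly(A) libraries. The authors trimmed the reads, aligned them with HISAT2 2.1.0, removed duplicates with Picard and deposited raw counts per Ensembl gene from HTSeq. The processing notes give GRCm38, while the study's methods name a human genome. The deposited counts carry mouse Ensembl genes, and GRCm38 was used here. The strand setting is not given in the sources used here. Duplicate removal compresses abundant genes, and reads that fit several genes are dropped, which lowers near-identical genes (75-base windows of GENCODE M21 transcripts were compared). Rows that name no gene stayed out of the totals; reads outside genes were 17.4 to 18.1% and ambiguous ones 5.51 to 6.07%.

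From the counts, genes with at least 10 counts over 6 libraries were tested with edgeR 4.0.16 (TMM, robust quasi-likelihood, R 4.3.3), with Benjamini-Hochberg adjustment over all 16954 genes and a threshold of 0.05. Log2 CPM used a prior count of 2. DESeq2 1.42.0, limma-voom 3.58.1, 1 surrogate variable (sva 3.50.0), other scalings, filters, a replicate block and each library left out were alternatives. The fits were tested on simulated data.

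The members and lists were chosen with earlier results of these data known. Named by rule were the 12 members with the highest mean CPM, the 5 with the largest within-group SD, Hes1 and up to 4 called genes in each direction from each list. Ifi204, also in the sensing list under an older name, was counted as a member only, and 1 listed symbol of the wider list did not match. P-values weigh the difference between the groups against the spread of the 3 cultures within each group. Values of 1 pathway gene are not reported here.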

Additional observations from a re-analysis of the deposited data

How the results depend on the processing

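Counts are given as higher and lower in Rosa-Hes1. The members had 0 called higher under all 14 alternatives, and 0 lower under each but DESeq2 (2, Oasl2 and Parp14) and leaving out Rosa-Hes1 replicate 3 (1, Irf7). On leaving out single libraries, members below 0 ranged from 22 (without Rosa-Hes1 replicate 1) to 37 of 38 (without Rosa-Hes1 replicate 3) and their median from -0.03 to -0.33 between the same 2. Over those fits, all genes called ranged from 244 to 1555 higher and from 21 to 1091 lower, the wider list from 0 to 4 higher and 0 to 7 lower, and the pathway genes from 0 to 4 higher and 1 to 4 lower. Without a filter, 697 of all genes, 6 of the wider list and 7 pathway genes were called lower. DESeq2 called 876, 11 and 9 lower and 2 of the wider list higher, limma-voom called 917, 7 and 5 lower, with 3 pathway genes higher, and the fit with 1 surrogate variable called 981, 8 and 9 lower, with 3 of each list higher. The causes of these differences were not tested.

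Some members changed sign when a library was left out. Their log2 fold changes ranged from -0.44 to 0.12 for Zbp1, -0.24 to 0.060 for Stat2, -0.079 to 0.16 for Irf1, -0.44 to 0.021 for Isg15, -0.24 to 0.075 for Herc6, -0.24 to 0.28 for Ifit2, -0.40 to 0.18 for Ifit3b, -0.21 to 0.071 for Oasl1, -0.46 to 0.13 for Mx1, -0.29 to 0.15 for Rsad2, -0.39 to 0.0078 for Cmpk2, -0.091 to 0.089 for Rtp4, -0.49 to 0.073 for Ifi44, -0.14 to 0.35 for Ifi205, -0.14 to 0.37 for Gbp2 and -0.094 to 0.21 for Gbp7. With limma-voom Rtp4 stood at -0.021. Those that gave a sign change did so mostly without Rosa-Hes1 replicate 1 (11 members). Of 532 values of members under the alternatives, 507 kept their direction and their side of the threshold. Outside the module no named gene changed sign, and 38 of 154 values lost their call.

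With a replicate block 710 genes were called higher and 340 lower, 0 members were called, 1 of the wider list was called higher and 1 lower, and 2 pathway genes were called higher and 5 lower. Libraries with the same number had deviations from their group means that correlated at 0.00, -0.16 and 0.38. Between libraries with different numbers the correlations ran from -0.49 to 0.48. Deviations from a mean of 3 libraries are tied to one another, so these values cannot settle whether libraries were paired. No pairs were read from the numbers. The numbers are those of the labels, and the table of Rosa-Hes1 replicate 3 was deposited under the number 4, so its number is uncertain.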

Other observations

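Among the pathway genes outside the module, some had their lowest value in Rosa-Hes1 replicate 1, as most members did; those given here were chosen after their values were seen. Nlrc5, which drives genes of antigen presentation, had 38.7, 60.9 and 68.8 CPM in Rosa-Hes1, against 81.4, 70.1 and 90.0 CPM in control. Tlr9, the receptor for unmethylated CpG DNA, had 8.64, 11.4 and 14.8 CPM in Rosa-Hes1, against 17.4, 17.3 and 15.8 CPM in control. Neither was called by edgeR (adjusted p = 0.165 and 0.0992). Jak1, Tbk1 and Otud5, which act in the pathway, stood in Rosa-Hes1 replicate 1 at 0.999, 1.01 and 0.973 times the mean of the other Rosa-Hes1 replicates.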
